A study of Homo sapiens with 12 samples.

Results

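The peaks described here are the very wide ones of an N4-acetylcytidine (ac4C) survey in RBE cells, an established human intrahepatic cholangiocarcinoma line. A peak was taken as wide when its deposited span ran over more than 10000 bp and its deposited score was 10 or more. The rule was met by 2076 of 28047 peaks in the knockdown list and by 3841 of 34365 peaks in the control list, 5917 of 62412 in all. The knockdown arm, titled sh-NAT10, carried a lentiviral short hairpin RNA against NAT10 and was grown from puromycin-resistant colonies. The control arm is titled sh-NC, and its hairpin sequence and selection are not described in the labels. Each arm was sequenced as 3 immunoprecipitates with an ac4C antibody and 3 inputs of the same fragmented RNA, 12 libraries in 4 groups. The molecule is labelled as polyadenylated RNA, whereas the protocol starts from total RNA and names a whole RNA library kit. The values are 1 peak list per arm with no column for a replicate. Nothing therefore measures the spread between replicates, no test between the arms was possible, and read depth is unknown. Bracketed ranges after a share are its 95% Wilson interval. They hold counting error alone and take the peaks to be independent, which peaks of 1 gene are not. Lower levels of a transcript, fewer cells that make it and less ac4C on it cannot be told apart from these lists.

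NAT10 is the acetyltransferase that makes ac4C, an acetylated cytidine first known from ribosomal and transfer RNA and later reported in messenger RNA by antibody enrichment. A peak is a stretch of the genome in which immunoprecipitated RNA was called enriched. In a protein-coding gene such a stretch can cover exons, which stay in the mature messenger RNA, introns, which are spliced out of the first transcript, or both. Each wide peak was written as 1 uninterrupted block on 1 strand, so its width is a distance along the genome and not a length of RNA.

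Few wide peaks began at an annotated gene start, and those that did show how finely the 2 lists can be compared. The 5′ end lay between 250 bases before and 50 bases after a RefSeq gene start on the same strand for 22 of 2076 knockdown wide peaks (1.06%) and for 25 of 3841 control wide peaks (0.651%). In the windows below, from 50 bases before the gene start through the first 30 bases of the gene (RefSeq, GRCh38.p14), capitals mark the bases covered by the wide peak. They were chosen as starts shared by both lists, shifted between them, or present in 1 list.
STOX2, plus strand, chr4:183797972-183798051, the same in both lists: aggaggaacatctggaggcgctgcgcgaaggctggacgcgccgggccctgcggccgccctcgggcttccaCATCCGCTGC
EFCAB5, plus strand, chr17:29929853-29929932, knockdown list: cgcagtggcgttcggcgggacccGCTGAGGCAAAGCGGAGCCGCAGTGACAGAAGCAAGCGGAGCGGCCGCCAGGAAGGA
EFCAB5, plus strand, chr17:29929853-29929932, control list: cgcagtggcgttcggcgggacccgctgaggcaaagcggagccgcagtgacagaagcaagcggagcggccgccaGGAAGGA
ZC3H12C, plus strand, chr11:110093342-110093421, knockdown list: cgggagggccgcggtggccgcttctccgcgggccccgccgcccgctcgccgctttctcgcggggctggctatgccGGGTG
SCN1A, minus strand, chr2:166149132-166149211, control list: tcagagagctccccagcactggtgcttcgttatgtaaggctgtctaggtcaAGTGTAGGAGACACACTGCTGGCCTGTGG
DMD, minus strand, chrX:33339359-33339438, control list: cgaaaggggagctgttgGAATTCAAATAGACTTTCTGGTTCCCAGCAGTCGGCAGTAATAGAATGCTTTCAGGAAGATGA

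The STOX2 peak covered 55400 bp (chr4:183798042-183853441) and started and ended on the same bases in both lists, with a score of 128 in the knockdown list and 62.4 in the control list. The EFCAB5 peak ended on the same base in both lists and was 11765 bp wide in the knockdown list and 11715 bp in the control list, so its start differed by 50 bp. The ZC3H12C peak (37596 bp, score 12.6) was without an overlapping wide control peak on its strand. ZC3H12C belongs to the family of CCCH zinc finger proteins. The SCN1A peak (21132 bp, score 11.2) was without an overlapping wide knockdown peak. SCN1A encodes a voltage-gated sodium channel of neurons. DMD encodes dystrophin, and its control peak (127879 bp, score 11.5) shared its downstream end with a knockdown peak of 127729 bp (score 12.3) that began 0.117 kb after the gene start.

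MicroRNA hairpins were set against the strand of the wide peaks that held them, because RefSeq gives their strand and mature sequence. Wide peaks held a whole hairpin in 23 cases in the knockdown list and 29 in the control list, out of 1562 hairpins in the RefSeq table. Only 1 such peak in each list lay on the strand of the hairpin. It was the same 36635 bp span inside NTRK3, a neurotrophin receptor gene (chr15:87940751-87977385, minus strand), with a score of 30.7 in the knockdown list and 31.5 in the control list. In the whole annotation 723 of 860 hairpins inside exactly 1 protein-coding gene of known strand (84.1%) lay on that gene's strand. The mature sequences of the hairpin on the peak's strand and of those under a peak of infinite score in either list follow (RefSeq, GRCh38.p14), with the seed, bases 2 to 8, in capitals.
hsa-miR-11181-5p, chr15:87946248-87946268, minus strand: gUCUGACCaaccuccucccgc
hsa-miR-11181-3p, chr15:87946211-87946228, minus strand: aGGAGGAGgaggucaggc
hsa-miR-1244, chr5:118974640-118974665, plus strand, under a minus-strand peak: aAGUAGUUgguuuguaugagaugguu
hsa-miR-1252-5p, chr12:79419261-79419282, plus strand, under a minus-strand peak: aGAAGGAAauugaauucauuua

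The span over miR-1244 was 43505 bp of DTWD2, a gene for a transfer RNA modifying enzyme (chr5:118944628-118988132). It was listed with an infinite score in the knockdown list and a score of 280 in the control list. The span over miR-1252-5p was 61414 bp (chr12:79393922-79455335) with an infinite score in the control list, and no wide knockdown peak overlapped it. The 4 seeds differ, so the sequences form no seed family.

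The knockdown list held fewer wide peaks, and the difference was larger than that of the lists as wholes. Its 2076 wide peaks were 54.0% of the control number, with a counting interval of 51.2 to 57.0%. All other peaks numbered 25971 in the knockdown list and 30524 in the control list, or 85.1% of the control number. Wide peaks were 7.40% of the knockdown list (7.10 to 7.71%) and 11.2% of the control list (10.8 to 11.5%). They made up 57.0% of the summed span of all knockdown peaks and 66.6% of that of all control peaks. The 1765 fewer wide peaks were 27.9% of the 6318 peaks by which the knockdown list was shorter. The deficit appeared on each of the 23 chromosomes counted (the autosomes and X), at 45.8% of the control number on chromosome 18 at the lowest and 77.4% on chromosome 17 at the highest.

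The difference between the lists was confined to neither end of the width range but was deepest between 20 and 200 kb. Among peaks with a score of 10 or more, the knockdown list held 81.1% of the control number of peaks up to 1 kb, 104% from 1 to 5 kb and 99.5% from 5 to 10 kb. It held 716 and the control list 855 peaks of 10 to 20 kb (83.7%), and 632 and 1218 of 20 to 50 kb (51.9%). At 50 to 100 kb the numbers were 373 in the knockdown list and 1052 in the control list (35.5%), and at 100 to 200 kb they were 272 and 578 (47.1%). Above 200 kb the knockdown list held 83 and the control list 138 (60.1%). The control list held more peaks of 20 to 50 kb than of 10 to 20 kb, which was not so in the knockdown list. The median wide peak spanned 31151 bp in the knockdown list and 45197 bp in the control list. The widest was the same peak in both lists, 468535 bp inside CCSER1 (chr4:91130039-91598573, plus strand), with a score of 21.2 in the knockdown list and 31.2 in the control list. CCSER1 spans 1478 kb of chromosome 4.

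**Figure D1:**
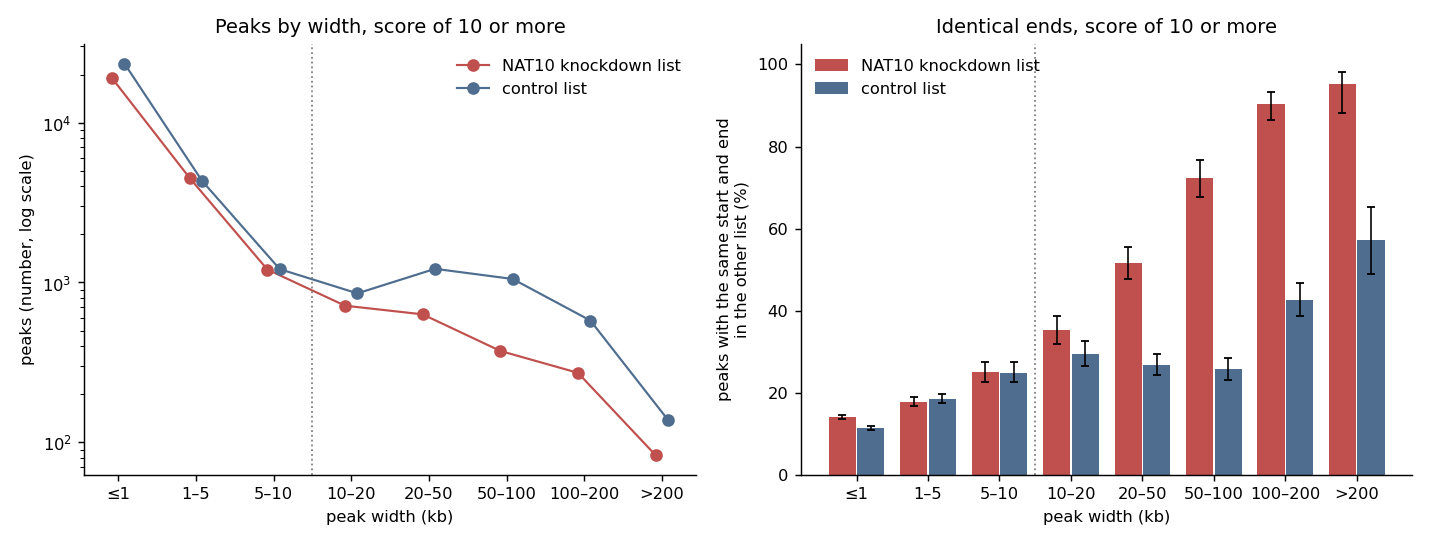
Number of peaks with a score of 10 or more by width in kb (left, log scale) and share of peaks in percent with the same start and end in the other list (right; error bars are 95% Wilson intervals), for the NAT10 knockdown list (red) and the control list (blue). The dotted line marks 10 kb. Between 50 and 100 kb the knockdown list held 373 peaks and the control list 1052, and 72.4% of these knockdown peaks had identical ends in the control list.

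The scores of wide peaks were alike in their middle, with a median of 15.6 in the knockdown list and 15.2 in the control list. An infinite score was listed for 36 knockdown and 40 control wide peaks. At the width limit the nearest knockdown peaks were 10002 bp wide inside it and 9989 bp outside, and the nearest control peaks 10004 bp and 9988 bp. At the score limit the nearest knockdown scores were 10.0058 inside and 9.52 outside, and the nearest control score inside was 10.0003. Another 717 knockdown and 1020 control peaks were wider than 10 kb with a score under 10, and 497 and 808 of them had a score of 0.

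Most wide peaks of the knockdown list were also in the control list, whereas most of the control list were not in the knockdown list. A wide peak of the other list overlapped on the same strand for 1351 of 2076 knockdown wide peaks (65.1%, 63.0 to 67.1%) and 1351 of 3841 control wide peaks (35.2%, 33.7 to 36.7%). The remaining 725 knockdown (34.9%) and 2490 control wide peaks (64.8%) had no such partner. Both shares come from the same 1353 overlapping pairs, so part of their contrast restates the lower number of knockdown wide peaks. Over peaks of any width, 44.4% of the knockdown list and 54.5% of the control list had no overlapping peak of any width in the other list. Measured in that way, 553 knockdown wide peaks (26.6%) and 2401 control wide peaks (62.5%) had none. Only 172 knockdown and 89 control wide peaks overlapped smaller peaks or peaks of low score alone. With peaks on either strand counted, 502 knockdown wide peaks (24.2%) and 2318 control wide peaks (60.3%) had none, beside 42.2% and 52.5% of peaks of any width.

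Where both lists had a wide peak, its ends were mostly the same base. In 1171 pairs the start and the end were identical, which is 56.4% of the knockdown and 30.5% of the control wide peaks. Among peaks of any width the same was true of 20.0% of the knockdown list and 16.3% of the control list. Among peaks with a score of 10 or more, the share of knockdown peaks with identical ends was higher in each wider class, with 14.0% up to 1 kb, 35.2% from 10 to 20 kb, 51.6% from 20 to 50 kb, 72.4% from 50 to 100 kb, 90.4% from 100 to 200 kb and 95.2% above 200 kb. In the control list it was 11.4%, 29.4%, 26.8%, 25.7%, 42.6% and 57.2% in the same 6 classes. Of the 1171 identical pairs, 464 had the higher score in the knockdown list, 683 in the control list, and 24 were infinite in both. The score has no stated scale, so these counts describe the lists and give no change in ac4C.

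The ends that differed did so in steps. In the other 182 overlapping pairs 147 ends were moved by less than 500 bp, and 141 of these (95.9%) by a multiple of 25 bp, with 55 ends moved by 25 bp and 30 by 50 bp. The EFCAB5 start printed above is such a case. The same step separated neighbours within a list. Consecutive wide peaks on 1 strand lay less than 500 bp apart in 73 knockdown and 328 control cases, and the gap was a multiple of 25 bp in 72 (98.6%) and 321 (97.9%). Such runs took in 139 knockdown wide peaks (6.70%) and 601 control wide peaks (15.6%). The longest run held 3 peaks in the knockdown list and 6 in the control list, and runs of 3 or more numbered 7 and 45. In narrow peaks, those up to 1000 bp, 93.0% of the knockdown and 95.3% of the control gaps below 500 bp were multiples of 25 bp as well, so the step was common to narrow and wide peaks.

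A wide peak seldom overlapped another peak of its own strand, whatever the width. Only 19 knockdown and 32 control wide peaks did, so the low count for narrow peaks is not particular to them. A narrow peak on the same strand shared at least 1 base with 7 knockdown wide peaks (0.337%) and 8 control wide peaks (0.208%). On either strand the numbers were 324 (15.6%) and 445 (11.6%). At least 1 base was shared with a peak of any width on the opposite strand by 444 knockdown (21.4%) and 728 control wide peaks (19.0%).

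About as many wide peaks crossed 1 annotated gene as crossed any other number of genes, and very few crossed many. Exactly 1 gene on either strand was crossed by 1055 knockdown wide peaks (50.8%, 48.7 to 53.0%) and 2047 control wide peaks (53.3%, 51.7 to 54.9%). Another 652 knockdown (31.4%) and 1096 control wide peaks (28.5%) crossed 2 genes, and 105 (5.06%) and 290 (7.55%) crossed none. Counting protein-coding genes alone, 1349 knockdown (65.0%) and 2352 control wide peaks (61.2%) crossed exactly 1, and 130 (6.26%) and 177 (4.61%) crossed 2 or more. A wide peak lay wholly within the span of a protein-coding gene in 1285 knockdown (61.9%) and 2219 control cases (57.8%). Genes joined on 1 strand were rare, since 2 or more genes known to lie on the strand of the peak were crossed by 32 knockdown (1.54%) and 70 control wide peaks (1.82%).

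In both lists the peak that crossed most genes lay over a tandem gene family. Those ranked 2 and 3 did so in the control list and not in the knockdown list. The record was 24 genes under a 170230 bp peak on chromosome 4 (chr4:9203473-9373702, minus strand), listed with the same ends in both lists and a score of 90.1 in the knockdown list and 133 in the control list. Of these genes 23 were members of the USP17L family of deubiquitinating enzymes, 19 of them protein-coding. These are near-identical copies, and reads could be split among them. In the control list a 12249 bp peak (chr5:141494859-141507107, score 14.5) crossed the spans of 22 PCDHG genes, and a 41628 bp peak (chr5:140884680-140926307, score 10.6) those of 14 PCDHA genes. Neither overlapped a wide knockdown peak on its strand. These clustered protocadherin genes, for adhesion molecules of neurons, share their last exons, so their annotated spans overlap and each peak lay inside many spans at once. In both lists a peak of infinite score inside CPA6, a carboxypeptidase gene, crossed 10 genes, most of them copies of mitochondrial genes (106153 bp). A peak over DSEL-AS1 crossed 8 genes with a score of 22.3 in the knockdown list and 33.6 in the control list. Of 19 families looked up by symbol, 9 had no gene under a wide peak in either list, the UGT1A, CYP3A and HLA genes among them. Zinc finger genes whose symbol starts with ZNF, mostly transcriptional repressors, had 23 knockdown and 44 control wide peaks in 21 and 35 of 517 genes (4.06% and 6.77%). Over all 20037 protein-coding genes these shares were 6.90% and 8.93%, and the ZNF peak number was 52.3% of the control number, near the 54.0% given above for all wide peaks. Keratin genes, which encode the intermediate filaments of epithelia, had 3 and 4 in 5 and 7 of 55 genes (9.09% and 12.7%).

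Wide peaks differed from smaller ones in the classes of genes under them. A protein-coding gene lay under 71.2% of knockdown wide peaks (69.3 to 73.1%) and 65.8% of control wide peaks (64.3 to 67.3%). For peaks over 1 and up to 10 kb the shares were 95.4% and 96.1%, and for narrow peaks 89.5% and 90.7%. Long noncoding RNA (lncRNA) genes lay under 35.7% of knockdown and 39.9% of control wide peaks, against 7.92% and 7.39% of narrow peaks. No gene lay under 5.06% of knockdown and 7.55% of control wide peaks, and under 0.442% and 0.430% of narrow peaks. Pseudogenes lay under 25.3% of knockdown wide peaks (23.5 to 27.2%) and 18.3% of control wide peaks (17.1 to 19.5%), against 13.1% and 11.6% of narrow peaks. A wider span can cross more genes. At 10 to 20 kb, 36.7% of knockdown and 34.9% of control peaks crossed 2 or more, and above 200 kb 68.7% and 70.3%. The pseudogene share was 19.0% and 16.7% at 10 to 20 kb, and 28.9% and 28.3% above 200 kb. The part of width in the class differences was not tested. The protein-coding share was lower in the widest peaks. It was 88.0% of knockdown and 84.4% of control peaks of 10 to 20 kb, and 53.0% and 60.1% above 200 kb. Among wide peaks that crossed exactly 1 gene, that gene was a pseudogene in 5.40% of knockdown and 4.49% of control cases. For narrow peaks that crossed exactly 1 gene the shares were 8.33% and 7.53%. In the single-gene wide peaks the gene was protein-coding in 75.3% of knockdown and 70.8% of control cases, and a lncRNA in 19.1% and 24.4%.

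**Figure D2:**
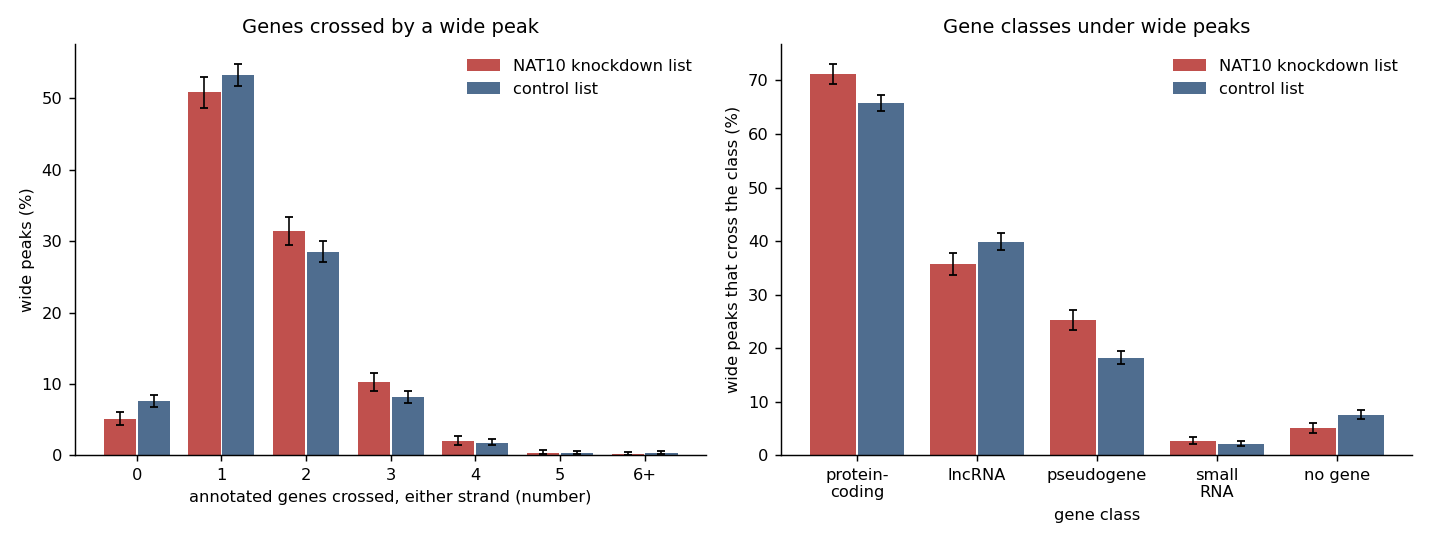
Share of wide peaks in percent by number of annotated genes crossed (left) and by gene class crossed (right; a peak can count in several classes), for the NAT10 knockdown list (red) and the control list (blue), with 95% Wilson intervals. Exactly 1 gene was crossed by 50.8% of knockdown and 53.3% of control wide peaks, and pseudogenes lay under 25.3% and 18.3%.

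Over a protein-coding gene the peak was usually on the gene's strand and well inside the gene. The strand was known for 79.1% of protein-coding genes. Of wide peaks that crossed exactly 1 such gene, 920 of 1098 in the knockdown list (83.8%) and 1650 of 1929 in the control list (85.5%) were on its strand. Of these, 97.5% and 97.2% lay wholly inside the gene. The host gene had a median span of 180 kb for knockdown and 364 kb for control wide peaks, and the peak covered a median of 16.2% and 12.8% of it. By the midpoint of the peak, the 5′, middle and 3′ parts of the gene, of equal length, held 35.7%, 36.2% and 28.1% of the knockdown peaks and 31.6%, 37.0% and 31.4% of the control peaks. A protein-coding gene of known strand lay wholly inside a wide peak in 30 knockdown and 61 control cases, and in none of them was it on the strand of the peak.

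Wide peaks on the strand opposite to their gene were a minority with a larger share at high scores. They numbered 178 of 1098 in the knockdown list (16.2%) and 279 of 1929 in the control list (14.5%). At scores of 10 to 12 the share was 11.5% in the knockdown list (8.05 to 16.3%) and 9.41% in the control list (7.13 to 12.3%). At finite scores of 50 or more it was 29.6% (21.8 to 38.8%) and 38.6% (30.8 to 47.2%). Narrow peaks, which the rule did not use, were counted on the strand that the wide peak did not occupy. For opposite-strand wide peaks that is the gene's strand, and for the others it is the strand opposite to the gene. The shares below therefore come from different strands of the gene and show no trait of the opposite-strand peaks. A narrow peak on the strand of the gene overlapped 76 of 178 opposite-strand wide peaks in the knockdown list (42.7%, 35.7 to 50.04%) and 137 of 279 in the control list (49.1%, 43.3 to 54.9%). Wide peaks on the gene's own strand overlapped a narrow peak on the other strand in 9.46% of knockdown (7.73 to 11.5%) and 5.76% of control cases (4.73 to 6.99%). The opposite-strand peaks were not wider, with a median of 22896 bp against 24229 bp on the gene's strand in the knockdown list, and 30671 bp against 41185 bp in the control list. Use of strand by the peak caller is not stated.

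**Figure D3:**
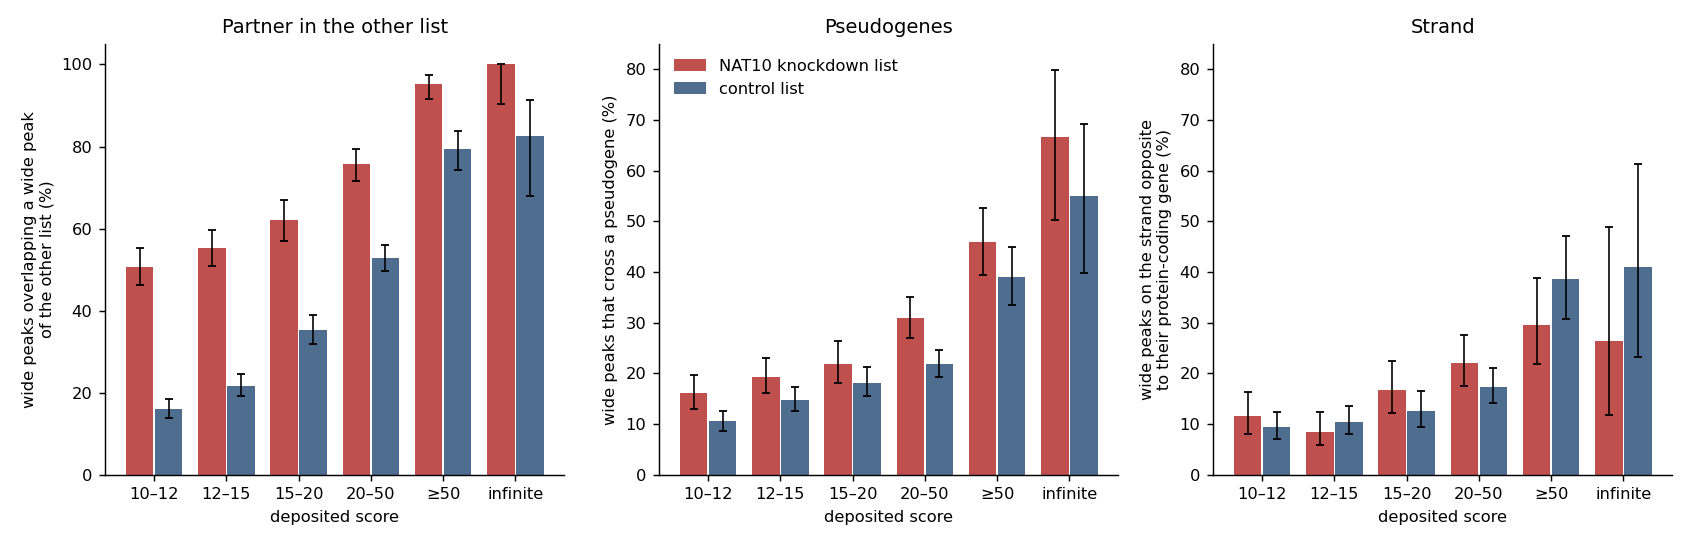
Share of wide peaks in percent, by deposited score, that overlapped a wide peak of the other list (left), crossed a pseudogene (middle) or lay on the strand opposite to their only protein-coding gene (right), for the NAT10 knockdown list (red) and the control list (blue), with 95% Wilson intervals. At scores of 10 to 12 a partner was found for 50.7% of knockdown and 16.0% of control wide peaks, and for 95.3% and 79.4% at finite scores of 50 or more.

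Pseudogenes, inactive copies of genes that share sequence with their source, were more common under high-scoring wide peaks. At scores of 10 to 12 a pseudogene lay under 16.1% of knockdown wide peaks (13.1 to 19.6%) and 10.5% of control wide peaks (8.73 to 12.6%). At finite scores of 50 or more the shares were 46.0% (39.4 to 52.7%) and 39.0% (33.4 to 44.8%), and at an infinite score 24 of 36 (66.7%) and 22 of 40 (55.0%). Width did not go with score in the same way in both lists. The median width was 37129 bp at scores of 10 to 12 in the knockdown list, 29894 bp at 20 to 50 and 25555 bp at finite scores of 50 or more. In the control list it was 35894, 78791 and 38231 bp in the same 3 classes, so up to a score of 50 wider control peaks and a larger pseudogene share came together. Peaks with a wide partner crossed a pseudogene in 29.5% of knockdown and 29.4% of control cases, and peaks without one in 17.5% and 12.2%. Between 20 and 50 kb the same shares were 35.4% and 35.5% with a partner, and 19.3% and 11.7% without. From 50 to 100 kb they were 30.8% and 30.5% with a partner, and 31.0% and 12.1% without, so the knockdown list showed no such gap in that width class. Pseudogenes of ribosomal proteins lay under 88 knockdown and 106 control wide peaks, copies of mitochondrial genes under 10 and 13, and copies of small RNAs under 99 and 131. These 3 families were chosen after their values were seen. RPTOR, a subunit of the growth-controlling mTOR complex, shows the pattern with a peak of 31910 bp over RPL31P7 that had an infinite score in both lists. TAOK3, a protein kinase gene, had an infinite score in both lists over RPS2P5 (10507 bp). AKAP6, which anchors protein kinase A, had one over the mitochondrial copy MTCO1P2 (19737 bp). Reads of a pseudogene and of its source gene can be confused in alignment, so the origin of signal in these spans is uncertain. Leaving out all wide peaks with a pseudogene, 1551 knockdown and 3140 control wide peaks were left, 49.4% of the control number.

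Some knockdown wide peaks over exactly 1 protein-coding gene had no overlapping wide control peak on their strand. The 8 of highest finite score among them had scores of 47.9 to 111 and widths of 11167 to 78924 bp. Smaller control peaks were not considered in that choice. The leader was a peak of 11167 bp in OCIAD1 (chr4:48837237-48848403, plus strand, score 111), a gene for an endosomal and mitochondrial protein. GFPT1, the enzyme that commits fructose 6-phosphate to the hexosamine pathway, followed at 15609 bp and 54.2. MRPS9, a protein of the mitochondrial ribosome, had 22145 bp and 50.1. ARID1B, a subunit of the SWI/SNF chromatin remodelling complex, had 12211 bp and 50.4. The others were in RIPOR2, DNAH6, SP140L and ABCA12, and the one in ABCA12 was the only one of the 8 opposite to its gene's strand.

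The corresponding 8 of the control list had higher scores, 187 to 258, and 7 of them lay on the strand opposite to their gene. The leader was a 32263 bp peak in DMXL2, a gene for a protein that regulates the vesicular proton pump (chr15:51466511-51498773, plus strand, score 258). DPP10, which modulates potassium channels, was crossed by a 60072 bp peak with a score of 231 (chr2:115835429-115895500). That peak lay mostly outside DPP10, which is annotated up to base 115845780. In UBE3A, a ubiquitin ligase gene, the peak of 35302 bp (score 202) lay on the plus strand, which is that of SNHG14, the long noncoding transcript known to run antisense to UBE3A in neurons. The other opposite-strand peaks crossed ZNF791, RORA, TENM2 and STXBP5L, and only the one in RORA lay wholly inside the gene. FBN2, which encodes the matrix protein fibrillin-2, had the one on its own strand (33223 bp, score 214). These ranks hold within each list only.

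Among peaks present in both lists the highest control scores were in peaks that crossed EFCAB11, BRF1, DTWD2, TUBA1A, ALG9 and HMGA2. EFCAB11 had a score of 185 in the knockdown list and 297 in the control list over the same 74413 bp. BRF1, a factor that recruits RNA polymerase III, had 222 and 283 over 12376 bp. The 38231 bp peak at TUBA1A, an alpha-tubulin gene of only 4.29 kb, was on the opposite strand and had 298 and 273. The peak that crossed HMGA2, which encodes a chromatin protein of embryonic tissue and tumours, had the largest finite difference of these peaks. Its score was 12.4 in the knockdown list and 259 in the control list, and its ends differed between the lists. The control peak (66968 bp, chr12:65759020-65825987) also crossed RPSAP52. It lay mostly outside HMGA2, which is annotated from base 65824460. CSMD1 (387878 bp), ROBO1 (387290 bp) and RGS6 (387241 bp) had the next widest peaks with a protein-coding gene after CCSER1, each with identical ends. ROBO1, an axon guidance receptor, had a score of 25.4 in the knockdown list and 78.6 in the control list, and RGS6, a regulator of G protein signalling, had 35.5 and 73.8.

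Counted by gene, 1382 protein-coding genes had a wide peak in the knockdown list and 1789 in the control list. Both lists had one in 908 genes. The knockdown list alone had one in 474 genes, 34.3% of its genes, and the control list alone in 881, or 49.2%. Of the 2263 genes in either list, 1088 had fewer in the knockdown list (48.1%), 639 the same number and 536 more (23.7%). The losses were deep in few genes. At least 5 fewer were counted in 45 genes, whereas the largest excess was 3. Genes with 5 or more wide peaks numbered 5 in the knockdown list and 69 in the control list.

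The shortfall was deepest in the longest genes, for wide peaks and for peaks of other widths, which the rule did not use. For wide peaks the share did not change in 1 direction over the shorter genes. Genes of up to 50 kb were crossed 363 times by knockdown and 446 times by control wide peaks, or 81.4% of the control number. In genes of 50 to 100 kb the numbers were 298 and 326 (91.4%), and from 100 to 200 kb 363 and 491 (73.9%). From 200 to 500 kb the numbers were 338 and 676 (50%), from 500 to 1000 kb 166 and 473 (35.1%), and above 1000 kb 108 and 356 (30.3%). Narrow peaks stood at 91.1% of the control number in genes of up to 50 kb, at 84.1%, 67.8%, 58.2% and 41.2% in the next 4 classes, and at 23.3% above 1000 kb, with 61 knockdown and 262 control peaks. Peaks over 1 and up to 10 kb stood at 109%, 116%, 104%, 81.9%, 41.2% and 32.2% in the same 6 classes. The small number of peaks of 1 to 10 kb in the longest genes, 19 and 59, makes that last share imprecise.

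**Figure D4:**
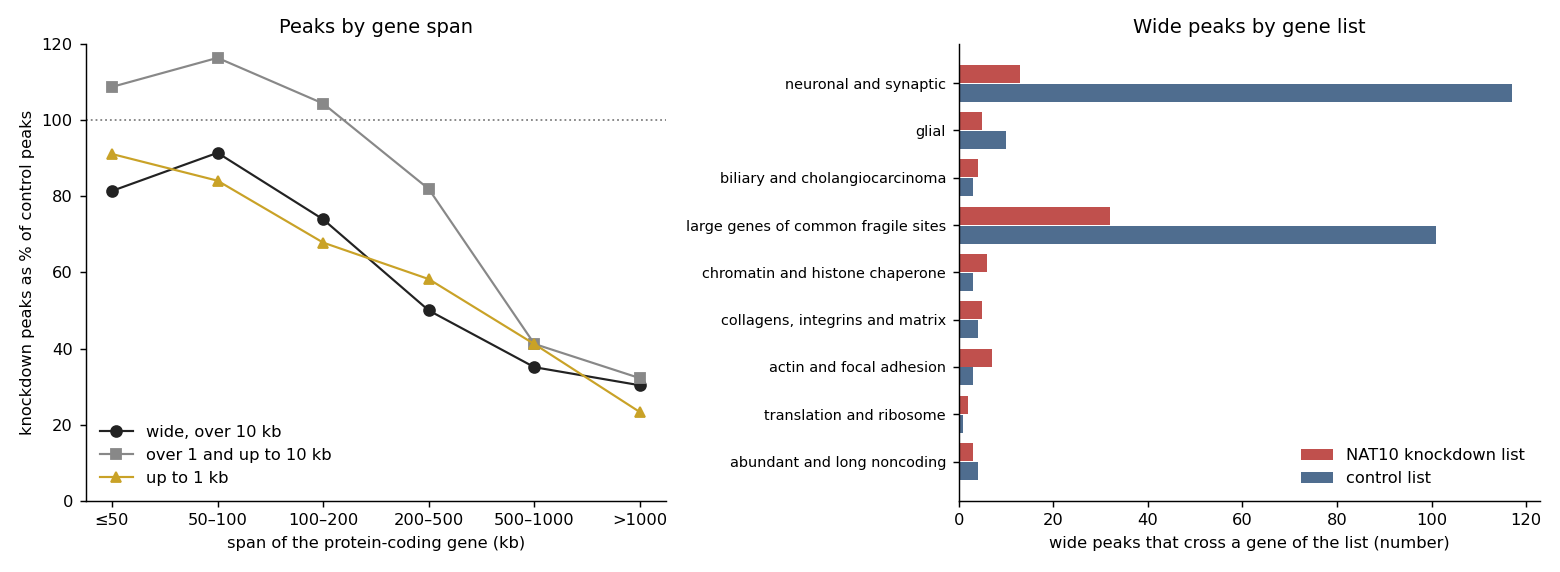
Knockdown peaks as percent of control peaks by span of the protein-coding gene in kb for 3 peak widths (left), and number of wide peaks that crossed a gene of each of 9 lists (right; NAT10 knockdown list in red above the control list in blue). Above 1000 kb the share was 30.3% for wide peaks, 32.2% for peaks over 1 and up to 10 kb and 23.3% for narrow peaks.

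Listed genes of the synapse and of neuronal signalling had fewer wide peaks in the knockdown list. Of 36 listed neuronal and synaptic genes, 10 had a wide peak in the knockdown list and 27 in the control list, with 13 and 117 wide peaks (11.1% of the control number). Those 104 fewer were 5.89% of the 1765 by which all wide peaks differed. The list held only 3.05% of control wide peaks, so its part could not be large. The part of neuronal genes outside the list was not counted. Of the 27 genes 25 had fewer in the knockdown list, with a median change of -3, beside 48.1% and a median change of 0 over all 2263 genes. These 27 genes were long, with a median span of 445 kb. All protein-coding genes of 200 to 500 kb stood at 50% of the control number, and those above 1000 kb at 30.3%. The part of gene length in the 11.1% was not tested. NRXN3, a presynaptic adhesion receptor, had 1 knockdown and 8 control wide peaks. CNTNAP2, another neurexin-family protein, had 1 and 9. NCAM2, a neural adhesion molecule, had 0 and 8. SCN1A, whose gene start is printed above, had 0 and 6. Narrow peaks in the 36 genes numbered 17 in the knockdown list and 261 in the control list, and peaks over 1 and up to 10 kb 6 and 79.

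Large genes of common fragile sites, stretches of the genome prone to break under replication stress, had 32 knockdown and 101 control wide peaks (31.7%) in 12 and 14 of 22 listed genes. These genes were long, with a median span of 1437 kb for the 15 with a wide peak in either list, and all protein-coding genes above 1000 kb stood at 30.3%. Of the 15, 12 had fewer in the knockdown list and 1 had more. LRP1B, a lipoprotein receptor family member, had 0 and 7, and MAGI2, a scaffold protein, had 1 and 9. Leaving out every wide peak over a gene of the neuronal, glial and fragile site lists left 2026 knockdown and 3613 control wide peaks, 56.1% of the control number.

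Defining markers of cell types were looked up in the same way, with peaks on either strand counted. The wide peaks over the biliary marker SPP1 and the astrocyte marker AQP4, 1 in each list, lay on the strand opposite to the gene. The control peak of 61414 bp over the neuronal marker SYT1 did so too. Such peaks are no measure of the marker's own transcript. Of 6 neuronal markers (SNAP25, SYT1, RBFOX3, GABRB2, SCN2A and MAP2), 0 had a wide peak in the knockdown list and 6 in the control list, with 0 and 13 wide peaks and 5 and 52 narrow peaks. Of 10 biliary epithelial markers 2 had a wide peak in the knockdown list and 1 in the control list. Peaks of up to 1000 bp were found in 8 of the 10 in each list, 35 and 38 in number, while EPCAM and CFTR had no peak of any width in either list. Astrocyte markers had 1 wide peak in each list, with 0 knockdown and 10 control narrow peaks. Oligodendrocyte markers had 0 and 1 wide peaks, and 0 and 11 narrow peaks. A list of 12 glial genes had 5 knockdown and 10 control wide peaks, and 5 and 39 narrow peaks. Immune markers had 0 and 1 wide peaks, and 6 and 5 narrow peaks. Hepatocyte and fibroblast markers had no wide peak, with 1 and 0 narrow peaks for hepatocytes and 1 and 3 for fibroblasts. The part of neuronal and glial transcripts in the lower number of wide peaks was not tested. The count without the listed genes covers those genes alone.

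The other gene lists had few wide peaks, at most 7 in the knockdown or the control list. These counts are too small to give a direction. Biliary and cholangiocarcinoma genes had 4 knockdown and 3 control wide peaks, and chromatin and histone chaperone genes had 6 and 3. Collagen, integrin and matrix genes had 5 and 4, actin and focal adhesion genes 7 and 3, and translation genes 2 and 1. In MET, a growth factor receptor, the knockdown list alone had a wide peak (23297 bp, score 16.7). FGFR2, a receptor altered in some cholangiocarcinomas, had 1 and 2. MYH9, a nonmuscle myosin, had 2 and 1, and ACTN4, an actin crosslinker, had 1 and 0. The ACTN4 peak covered 62.9% of the gene. ITGA6, an integrin subunit, had 1 in each list over 50.2% and 50.1% of the gene. Among 12 abundant or long noncoding RNA genes 3 knockdown and 4 control wide peaks were counted. FTX, a noncoding gene of the X inactivation centre, had the same 35667 bp peak in both lists with scores of 71.1 and 45.7. CHAF1A, a histone chaperone subunit that the study measured by PCR, had no wide peak in either list, and neither had NAT10. Narrow peaks in CHAF1A numbered 4 in the knockdown list and 11 in the control list, and in NAT10 4 and 3. The lists do not measure how far NAT10 was reduced.

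Along several of the longest genes control wide peaks covered more of the gene than knockdown wide peaks did. DLG2, which encodes the postsynaptic scaffold PSD-93 (chr11:83455012-85628373, minus strand), had 3 knockdown and 19 control wide peaks. On its strand they covered 9.08% of its 2173 kb in the knockdown list and 54.8% in the control list. The 3 knockdown peaks had the same ends in the control list, began 103, 365 and 908 kb from the gene start, and had scores of 125, 14.0 and 12.4. In the control list those 3 had an infinite score, 15.9 and 17.3. A run of 4 control peaks was split by gaps of 125, 25 and 100 bp.

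PTPRD, a receptor tyrosine phosphatase (chr9:8314246-10613002, minus strand), had 5 knockdown and 13 control wide peaks, which covered 46.3% and 83.2% of the gene on its strand. Both lists held adjoining peaks of 271405 and 307197 bp at its 5′ end. Their scores were 22.3 and 26.9 in the knockdown list and 73.0 and 55.3 in the control list. CTNNA3, an alpha-catenin of cell junctions, had 7 knockdown and 14 control wide peaks over 35.9% and 64.5% of the gene. Of the 7 knockdown peaks 6 had the same ends in the control list. The other, 100943 bp with a score of 12.7, lay between 2 shared peaks where the control list had no wide peak. DMD had 3 and 14, covering 13.2% and 40.5%. A DMD peak of 61471 bp had the same ends in both lists with a score of 29.0 in the knockdown list and 116 in the control list. DPP6, a partner of potassium channels, had 2 and 11 over 36.4% and 79.1% of the gene, and AUTS2, a nuclear regulator of neural development, had 1 and 9 over 9.94% and 76.8%.

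**Figure D5:**
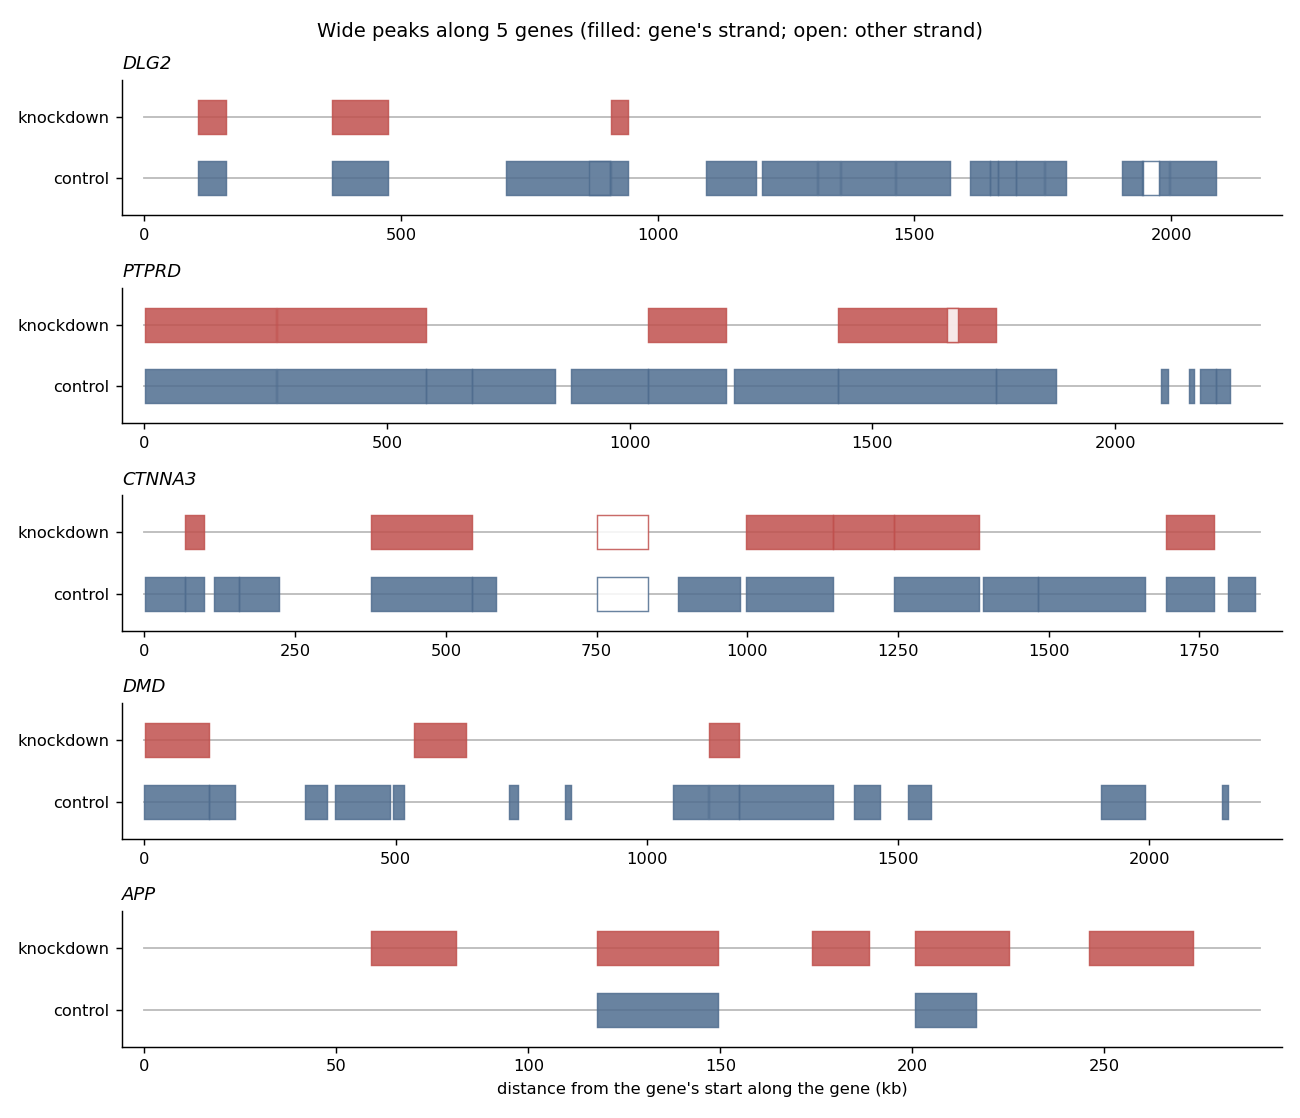
Wide peaks along DLG2, PTPRD, CTNNA3, DMD and APP, with the distance from the gene start in kb on the horizontal axis and the NAT10 knockdown list (red) above the control list (blue) for each gene. Filled bars lie on the gene's strand and open bars on the other strand. DLG2 had 3 knockdown and 19 control wide peaks, and APP had 5 and 2.

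The reverse, more wide peaks in the knockdown list, was small in each gene. APP, the gene of the amyloid precursor protein, had the largest excess with 5 knockdown and 2 control wide peaks, which covered 41.3% and 16.3% of its 291 kb. The knockdown peaks were 14860 to 31524 bp wide with scores of 14.6 to 47.9, and the control peaks were 15800 and 31499 bp wide with scores of 17.4 and 13.1. The 31524 and 31499 bp peaks shared 1 end, and the other end differed by 25 bp. An excess of 2 or more was found in 27 genes. ARID1B had 3 and 1, CAST, an inhibitor of calpain proteases, had 3 and 1, and ABLIM3, an actin-binding LIM protein, had 4 and 2. ALCAM, a cell adhesion molecule, had 2 and 0, and its knockdown peaks covered 39.5% of the gene.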

How the data were processed

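The authors deposited 1 peak list per arm of ac4C immunoprecipitation in RBE cells, with 12 columns per peak. The submitters' processing notes name the build hg38 with Bowtie2 2.4.1 and fastp 0.20.1. For peak calling, no tool, threshold, role of the inputs, strand setting or handling of replicates is stated in those sources. The deposited score has no stated scale, so it ranked and filtered peaks within a list only. The name of 1 list fits only the control titles, and the other was assigned to the knockdown arm by elimination. Starts were converted to 1-based coordinates.

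Peaks over 10000 bp with a score of 10 or more were set against each other with at least 1 shared base on the same strand, and against RefSeq gene spans (GRCh38.p14) with at least 1 base on either strand. That table holds no exons, and strand came from the RefSeq promoter table. Python 3.11.15, NumPy 2.4.6, pandas 2.3.3, SciPy 1.17.1 and matplotlib 3.10.9 were used. The overlap procedure was tested on simulated data: all 2304 shifted copies of control wide peaks were found, and all 2569 overlaps were as bedtools 2.31.1 gave them.

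Over exactly 1 protein-coding gene, the rule named the 8 highest finite scores of each list without a partner, the 6 highest with a partner sharing 90% of both peaks, and the 5 widest. It also named the 3 peaks with most genes, up to 4 members of 9 gene lists, CHAF1A and NAT10. Genes with the largest changes, peaks of infinite score and the printed gene starts were chosen after their values were seen. The members and lists were chosen with earlier results of these data known. A few of the named genes are not reported here.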

Additional observations from a re-analysis of the deposited data

How the results depend on the processing

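With 1 list per arm, no replicate could be left out, no depth-based interval was possible, and widths and scores that chose the members carry no test. No paired analysis was possible because the lists carry no replicate columns. The knockdown number of wide peaks was below the control number under all 10 other settings, at 41.2 to 65.0% of it. It was 65.0% above 5000 bp, 45.5% above 20000 bp and 41.2% above 50000 bp. It was 57.5% without a score minimum, 58.4% at scores of 20 or more, and 59.2% when the control list was shortened by score to the length of the knockdown list. Among peaks that cross no pseudogene, a setting chosen after seeing the data like the next ones named so, it was 49.4%. Finite scores only (53.7%), merging of overlapping wide peaks (54.0%) and removal of 3 gene lists (56.1%, chosen after seeing the data) stayed within the counting interval. The share of wide peaks with exactly 1 gene was 65.0% in the knockdown and 61.2% in the control list for protein-coding genes only. It was 60.0% and 59.3% for genes known to lie on the peak's strand. It was 32.5% and 29.0% for genes covered over at least 50% of their span, 45.1% and 50.6% above 20000 bp, and 39.4% and 42.5% at scores of 20 or more. The share with a partner was 62.9% in the knockdown list when 90% of both peaks had to be shared, and 62.4% at scores of 20 or more. With peaks of any width as partners it was 73.4% and 37.5%, above 20000 bp 73.2% and 33.4%, without pseudogenes 61.4% and 30.4% and with identical ends 56.4% and 30.5%, the last 2 chosen after seeing the data. A protein-coding gene was the gene in 75.3% and 70.8% of single-gene peaks, and lay under 62.4% and 60.5% of peaks above 20000 bp. A pseudogene was the gene in 5.40% and 4.49% of single-gene peaks, and lay under 37.1% and 26.8% at scores of 20 or more, and under 28.6% of knockdown peaks above 20000 bp. A narrow peak on either strand overlapped 15.6% and 11.6%, and at scores of 20 or more one on the same strand overlapped 0 of 731 (0%) and 1 of 1252 (0.0799%).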
